A study of Mus musculus with 6 samples.

Results

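The 10 genes described here carry glucose into the cell, turn it into lactate, export the lactate or switch these steps on: the glucose transporter Slc2a1, the hexokinases Hk1, Hk2 and Hk3, the phosphofructokinase genes Pfkl, Pfkp and Pfkfb3, the lactate dehydrogenase Ldha, the lactate exporter Slc16a3 and the transcription factor Hif1a. They were chosen by gene name for their place in this route, with earlier results of these data known. Of the 10, 10 were measured, each by 1 probe set, among 19505 named genes and 22206 probe sets. The samples are brain microglia taken at the peak of experimental autoimmune encephalomyelitis (EAE), an autoimmune mouse model of multiple sclerosis. The CKO group holds 3 arrays from mice labelled as a B cell conditional knock-out, and the control group holds 3 arrays from mice labelled control. All mice were female C57BL/6 given 100 µg of recombinant MOG, a myelin protein, in 100 µL of IFA under the skin, with 300 ng of pertussis toxin on that day and again 48 h later. The series title links the knock-out to B cells that express GM-CSF. The deleted allele, the Cre driver, the mouse ages, the number of animals behind each sample and the way the microglia were isolated are not stated by the labels. The question put to the data is whether microglia of immunised mice differ once this B cell population is altered.

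Glucose enters a cell through facilitative transporters and is trapped by hexokinase as glucose 6-phosphate. Phosphofructokinase sets the pace of the following steps, lactate dehydrogenase regenerates NAD+ by reducing pyruvate, and a proton-coupled carrier removes the lactate. Macrophages and microglia are known to raise this route when they are activated by inflammatory signals, and the oxygen-sensitive factor HIF-1, of which Hif1a encodes the regulated subunit, is a known activator of most of its genes.

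All 10 genes had a lower mean in CKO than in control microglia, as did 44.3% of all probe sets. For 6 of them (Slc2a1, Hk2, Pfkp, Pfkfb3, Slc16a3 and Hif1a) each CKO array lay below each control array, which held for 8.48% of all probe sets, while Hk1, Hk3, Pfkl and Ldha overlapped. The mean differences ran from a log2 fold change of -1.51 for Slc2a1 to -0.08 for Hk1. None passed a test adjusted over all probe sets (limma, two-sided, Benjamini-Hochberg adjusted p from 0.282 to 0.958), a test that called 0.00901% of all probe sets, namely the 2 probe sets of Anpep and C4a. An unadjusted p under 0.05 was reached by 6 of the 10, all lower in CKO, beside 6.35% of all probe sets lower and 3.55% higher in CKO at that p. The value range is narrower on CKO replicates 2 and 3 than on CKO replicate 1 and the controls, so each array is given below.

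Promoter sequence is shown for the genes at the entry, control, exit and regulator of the route whose groups did not overlap: Slc2a1, Pfkfb3 (at 2 RefSeq starts), Slc16a3 and Hif1a. Each line gives the 250 bases before a transcription start, 5′ to 3′ on the gene's strand, from RefSeq on build GRCm38.p6. Capitals mark ACGTG and GCGTG, the core letters of the hypoxia response element that HIF-1 binds, on either strand; CACGTG holds ACGTG on both strands.
Slc2a1, chr4:119108495-119108744, plus strand: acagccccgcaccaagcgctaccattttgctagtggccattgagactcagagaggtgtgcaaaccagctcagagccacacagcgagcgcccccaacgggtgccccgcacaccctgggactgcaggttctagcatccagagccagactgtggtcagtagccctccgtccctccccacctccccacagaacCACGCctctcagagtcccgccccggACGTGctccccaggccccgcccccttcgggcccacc
Pfkfb3, chr2:11502091-11502340, minus strand: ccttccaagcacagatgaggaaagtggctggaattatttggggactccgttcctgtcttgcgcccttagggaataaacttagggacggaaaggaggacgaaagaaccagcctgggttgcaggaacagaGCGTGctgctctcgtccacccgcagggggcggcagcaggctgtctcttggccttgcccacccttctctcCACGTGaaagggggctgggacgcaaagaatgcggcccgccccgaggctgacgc
Pfkfb3, chr2:11553930-11554179, minus strand: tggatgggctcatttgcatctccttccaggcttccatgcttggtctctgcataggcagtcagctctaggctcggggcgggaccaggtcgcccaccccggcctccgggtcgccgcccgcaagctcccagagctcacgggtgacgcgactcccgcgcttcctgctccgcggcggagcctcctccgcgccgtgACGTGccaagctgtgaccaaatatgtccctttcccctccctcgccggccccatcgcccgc
Slc16a3, chr11:120948817-120949066, plus strand: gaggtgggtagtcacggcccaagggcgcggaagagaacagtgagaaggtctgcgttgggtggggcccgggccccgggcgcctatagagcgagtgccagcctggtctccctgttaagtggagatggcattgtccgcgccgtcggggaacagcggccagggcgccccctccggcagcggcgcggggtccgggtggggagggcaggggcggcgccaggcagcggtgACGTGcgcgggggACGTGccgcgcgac
Hif1a, chr12:73907617-73907866, plus strand: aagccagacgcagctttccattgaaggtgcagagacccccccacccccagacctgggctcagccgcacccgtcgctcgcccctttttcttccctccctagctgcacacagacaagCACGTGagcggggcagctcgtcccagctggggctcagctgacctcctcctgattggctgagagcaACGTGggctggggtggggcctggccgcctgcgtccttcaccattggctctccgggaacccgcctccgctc

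These letters occurred in 12 of the 13 windows of the 10 genes and in at least 1 window of each gene. They are common letters: 45.5% of the 19143 windows of genes on the array held them, and 38.6% of all 32851 windows. At least 1 window held them for 48.8% of the genes on the array. The windows of the 10 genes were also richer in G and C, with a median of 62.8% against 56.0% for genes on the array. In Slc2a1 the nearest match began 36 bases before the start, in Slc16a3 a pair of matches began 27 and 14 bases before it, and in Hif1a the matches began 135, 134 and 70 bases before it. The window of Hk1 at chr10:62379909-62380158 held no match. A window of Ldha, whose groups overlapped, held 5 matches, the most of the 13 windows. A match describes the letters only; no binding was measured here.

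The arrays differed within the groups. CKO replicates 2 and 3 had interquartile ranges of 3.08 and 3.11, and the other arrays ranges of 3.66 to 4.0. The mean of 10 astrocyte markers was highest on CKO replicate 1 (12.49), at 8.98 and 8.97 on CKO replicates 2 and 3, and ran from 8.50 to 10.98 on the controls. Slc1a2, an astrocyte glutamate transporter, was at 16.92 on CKO replicate 1 and 15.02 on control replicate 2, and between 10.79 and 12.9 on the other arrays. Of 13 measured microglial markers 10 had a higher and 3 a lower mean in CKO, where 44.3% of all probe sets had a lower mean. For 3 of the 13 all CKO arrays lay above all control arrays (5.94% of all probe sets), and 0 were called. The mean level of the 13 was 16.53 to 17.05 in CKO and 16.13 to 16.64 in controls. Tmem119, a defining microglial gene, was among the lower (difference -0.44), at 14.77, 12.41 and 12.29 in CKO and 14.03, 13.75 and 13.01 in controls. The labels do not say whether each replicate is a different animal, and the p-values thus rest on a spread between samples that may be technical.

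Slc2a1 encodes GLUT1, the basal glucose transporter of many cells, which is also abundant in the endothelium of the blood-brain barrier. It was at 12.54, 11.15 and 10.92 on CKO replicates 1, 2 and 3, against 13.16, 12.66 and 13.32 on control replicates 1, 2 and 3. The groups did not overlap, but CKO replicate 1 lay only just under control replicate 2 while the other CKO arrays lay well below. The group means were 11.54 ± 0.88 in CKO and 13.05 ± 0.34 in controls (SD, n = 3 each), and their difference was -1.51 (SE 0.45, 95% confidence interval -2.53 to -0.49, adjusted p = 0.311), equal to a level 2.85-fold lower in CKO. Without CKO replicate 1, the difference was -2.01 and passed (adjusted p = 0.0123), in a fit that called 4.94% of all probe sets lower in CKO. That setting sets only the narrow-range CKO arrays against the controls, so the knock-out and the narrow range cannot be told apart there. Cldn5, a tight junction protein of that barrier, was at 5.08, 4.7 and 5.03 in CKO and 4.42, 5.11 and 4.5 in controls. These are low values, at percentile 7.7 of the mean levels of all probe sets. The mean of the 10 endothelial markers was 7.61 to 7.72 in CKO and 7.81 to 7.96 in controls, without overlap and thus lower in CKO beside Slc2a1. Of these markers 5 had a lower mean in CKO, 4 of them without overlap (8.48% of all probe sets). A higher mean was found for 5, 1 of them without overlap (5.94% of all probe sets). The median log2 fold change of the markers was -0.11, and 0 were called. The part of endothelial cells in the Slc2a1 result was not tested.

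Hexokinases start the route, and the 3 genes differed in their patterns. Hk2, the form that is induced in growing and stimulated cells, was at 11.13, 10.81 and 10.46 in CKO, against 11.5, 11.45 and 11.37 in controls. The controls lay close together and above each CKO array, with means of 10.80 ± 0.34 in CKO and 11.44 ± 0.07 in controls (SD, n = 3 each). The difference was -0.64 (SE 0.28, 95% confidence interval -1.28 to 0, adjusted p = 0.504). Hk1, the widely expressed form that is prominent in brain, was at 11.63, 10.84 and 9.93 in CKO, against 11.17, 10.97 and 10.51 in controls. CKO replicate 1, the array with the highest astrocyte and neuron markers, was the highest for Hk1 and CKO replicate 3 the lowest, so the CKO arrays spanned the controls; the part of those markers in the result was not tested. The difference was -0.08 (95% confidence interval -1.09 to 0.92, adjusted p = 0.958), and it changed sign to 0.12 after quantile normalization, which gives all arrays the same distribution.

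Hk3, a hexokinase of myeloid leukocytes, was at 10.27, 9.97 and 10.03 in CKO, against 10.53, 9.33 and 10.75 in controls. Control replicate 2 was the lowest of the 6 arrays and the other controls the highest, so the CKO arrays fell between them. The difference was -0.11 (95% confidence interval -1.02 to 0.79, adjusted p = 0.933), and 0.07 after quantile normalization. The intervals for Hk1 and Hk3 allow changes of about the size seen for Hk2 in either direction.

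Phosphofructokinase-1 is built from subunits that include the liver type, Pfkl, and the platelet type, Pfkp. Pfkp was at 10.29, 10.27 and 9.79 in CKO, against 11.27, 10.76 and 11.26 in controls. The groups did not overlap, and CKO replicates 1 and 2 had nearly the same value despite their different ranges. The means were 10.12 ± 0.28 in CKO and 11.10 ± 0.29 in controls, a difference of -0.98 (SE 0.29, 95% confidence interval -1.65 to -0.31, adjusted p = 0.315). Pfkl was at 9.87, 9.58 and 8.82 in CKO, against 10.1, 9.72 and 10.23 in controls. CKO replicate 1 exceeded control replicate 2, and the difference of -0.59 did not pass (SE 0.34, adjusted p = 0.582).

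Pfkfb3 encodes the enzyme that makes the sugar bisphosphate activator of phosphofructokinase-1, and had the smallest p of the 10 genes. It was at 12.07, 11.76 and 11.03 in CKO, against 12.64, 12.76 and 12.92 in controls. The controls lay within a narrow band and each CKO array lay below it by more than that band's width. The means were 11.62 ± 0.53 in CKO and 12.77 ± 0.14 in controls, a difference of -1.15 (SE 0.33, 95% confidence interval -1.91 to -0.40, unadjusted p = 0.00739, limma adjusted p = 0.282), equal to a level 2.22-fold lower in CKO. Without CKO replicate 1 the difference was -1.38 and passed (adjusted p = 0.0308), again on the narrow-range CKO arrays alone.

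Ldha encodes the A subunit of lactate dehydrogenase, which favours the formation of lactate. It was at 13.46, 12.85 and 12.05 in CKO, against 14.19, 12.94 and 14.27 in controls. Control replicate 2 lay below CKO replicate 1, so the groups overlapped, and the difference of -1.01 had an interval that includes 0 (SE 0.48, 95% confidence interval -2.10 to 0.08, adjusted p = 0.526). Slc16a3 encodes MCT4, the carrier that exports lactate from glycolytic cells. It was at 10.67, 10.01 and 10.21 in CKO, against 11.28, 10.75 and 11.61 in controls, with no overlap although CKO replicate 1 and control replicate 2 nearly met. The difference was -0.92 (SE 0.33, 95% confidence interval -1.67 to -0.17, adjusted p = 0.41).

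Hif1a was at 12.9, 13.09 and 12.41 in CKO, against 13.54, 13.35 and 14.05 in controls. Each CKO array lay below each control array, and here CKO replicate 2, a narrow-range array, was the highest of its group. The means were 12.80 ± 0.35 in CKO and 13.65 ± 0.36 in controls, a difference of -0.85 (SE 0.32, 95% confidence interval -1.57 to -0.12, adjusted p = 0.434). After quantile normalization CKO replicate 2 stood at 13.34 and control replicate 2 at 13.27, so the groups then overlapped, and the difference was -0.60. The HIF-1 protein is controlled mainly by its breakdown, which an array of RNA does not measure.

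**Figure D1:**
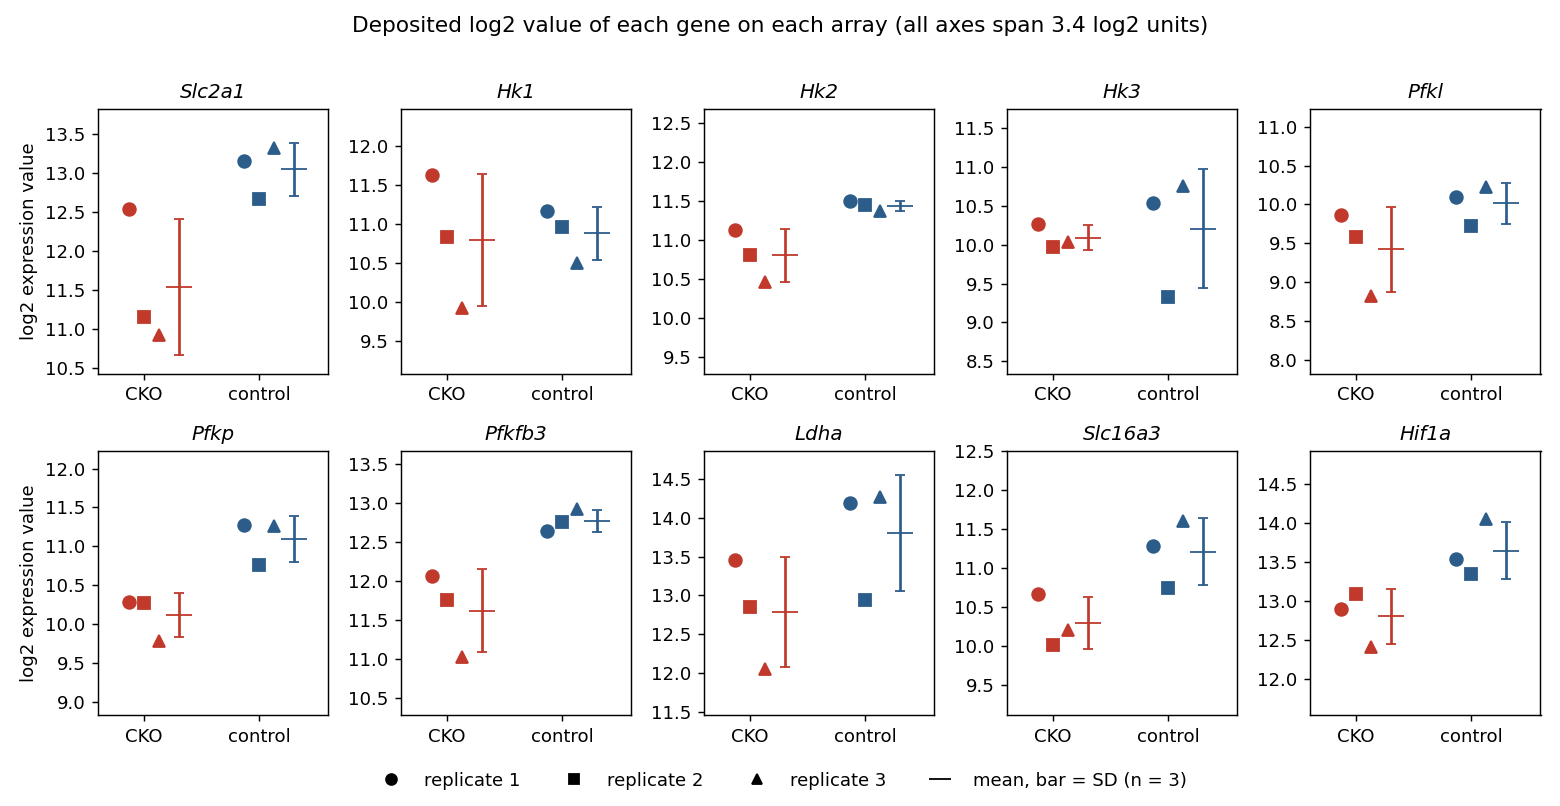
Deposited log2 expression value (vertical axis, log2 units) of each of the 10 genes on the 3 CKO arrays (red, left) and the 3 control arrays (blue, right), with marker shapes for the replicates and the group mean ± SD beside them. Slc2a1, Hk2, Pfkp, Pfkfb3, Slc16a3 and Hif1a have each CKO array below each control array, and CKO replicate 3 is the lowest of the 6 arrays for 8 of the 10 genes.

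**Figure D2:**
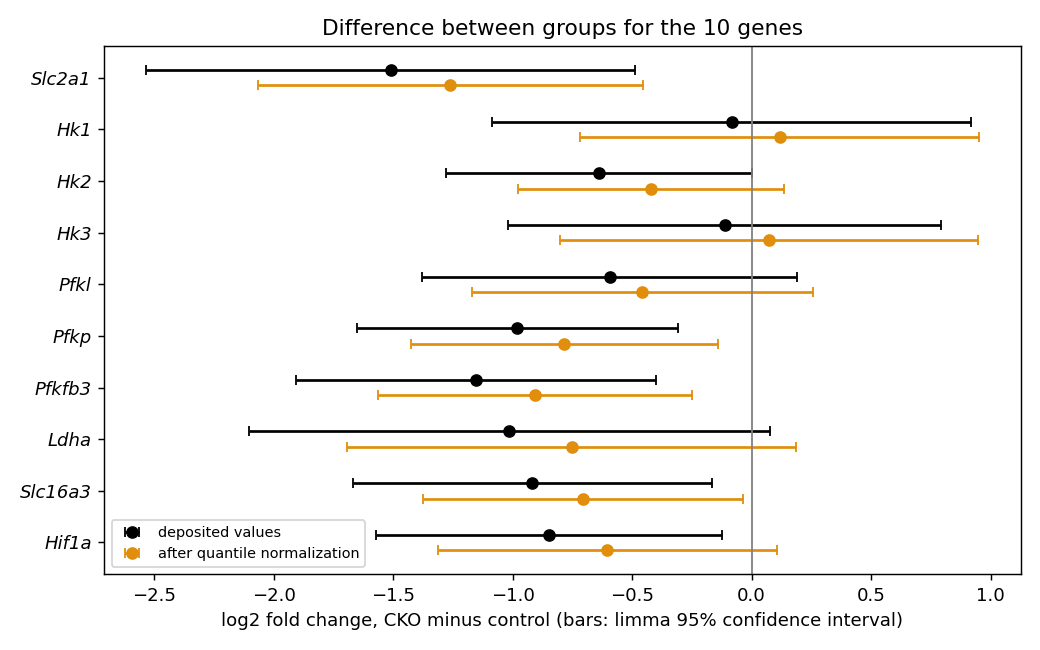
Log2 fold change, CKO minus control (horizontal axis), with the limma 95% confidence interval, from the deposited values (black) and after quantile normalization (orange). On the deposited values 6 intervals lie at or below 0, and Hk1 and Hk3 move from -0.08 and -0.11 to 0.12 and 0.07 after normalization.

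Across the 10 genes the median log2 fold change was -0.88, beside 0.06 over all 22206 probe sets. Because the genes were chosen with earlier results of these data known, this contrast is a description and not a test. The 10 genes all belong to the brightest 25% of probe sets, where CKO values were lower more widely: the median log2 fold change there was -0.19, 66.5% had a lower mean in CKO, 17.5% had all CKO arrays below all control arrays and 13.7% had an unadjusted p under 0.05 and a lower mean. Bright probe sets were lower on the narrow-range arrays in particular, by a median of -0.32 on CKO replicate 2 and -0.37 on CKO replicate 3 against the control mean, whereas CKO replicate 1 had a median of 0.03 there. The narrow range and the knock-out cannot be told apart on CKO replicates 2 and 3.

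CKO replicate 1 has no narrow range, and it lay below all 3 controls for 6 of the 10 genes, beside 30.8% of all probe sets and 28.0% of the brightest 25%. It differs from the other arrays in other ways. Its astrocyte, neuron and oligodendrocyte marker means (12.49, 10.37 and 10.29) were the highest of all arrays, and their part in its values was not tested. CKO replicate 1 also correlated more with each control (0.94 to 0.975) than with CKO replicates 2 and 3 (0.932 and 0.937). It was the highest CKO array for 9 of the 10 genes, and control replicate 2 was the lowest control for 7. Which groups overlap thus depends largely on these 2 arrays. CKO replicate 1 differed from the control mean by -0.81 for Pfkp, -0.75 for Hif1a, -0.70 for Pfkfb3, -0.54 for Slc16a3, -0.51 for Slc2a1 and -0.31 for Hk2. It was above the control mean for Hk1 (0.75) and Hk3 (0.07), and the median over the 10 genes was -0.42, beside -0.05 over all probe sets. The same median was -0.73 on CKO replicate 2 and -1.22 on CKO replicate 3. After quantile normalization the median log2 fold change of the 10 genes was -0.66, beside 0.01 over all probe sets, 8 of the 10 were lower, beside 48.7% of all probe sets, 5 had no overlap, beside 9.18% of all probe sets, and 0 were called. A fit with limma array weights, which gave CKO replicate 1 a weight of 0.258 and control replicate 1 one of 2.51, called Slc2a1, Pfkp, Pfkfb3 and Slc16a3 (adjusted p = 0.0173 to 0.0476), but it also called 1694 of the 22206 probe sets, 1057 of them (4.76%) lower in CKO.

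**Figure D3:**
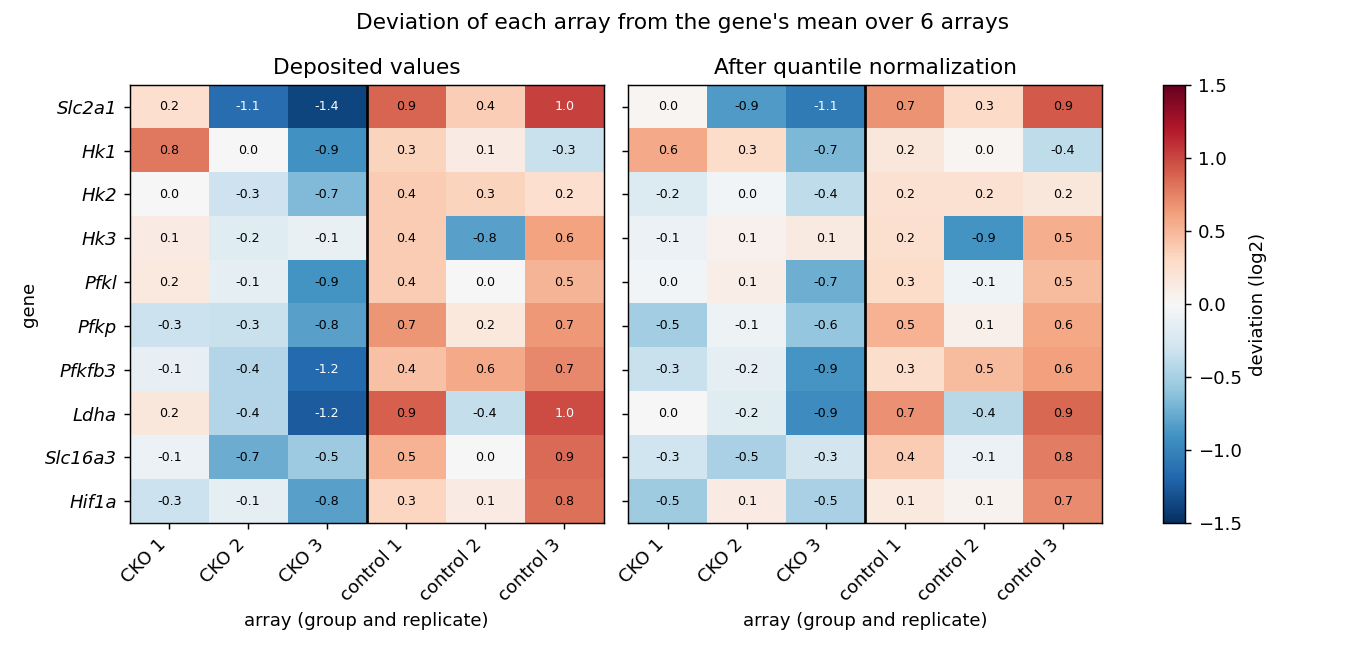
Deviation of each array from the gene's mean over 6 arrays (colour and printed value, log2 units), for deposited values (left panel) and after quantile normalization (right panel), with CKO arrays left of the black line and control arrays right of it. In the left panel CKO replicate 3 is the lowest array for 8 genes and control replicate 3 the highest for 7, and Hk1 and Hk3 follow other patterns than the rest.

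The other genes of the pathway did not share a direction. Of 70 measured genes in 7 lists, 37 had a lower and 33 a higher mean in CKO, 0 were called in either direction, 5 lower and 1 higher reached an unadjusted p under 0.05, and all CKO arrays lay below all control arrays for 6 genes and above them for 3, beside 8.48% and 5.94% of all probe sets. Without CKO replicate 1, 5 of the 70 were called lower, namely Tpi1, Pgk1, Pgam1, Pkm and Egln3 (limma adjusted p from 0.0179 to 0.0477). With array weights 4 were called lower, namely Tpi1, Pgk1, Pgam1 and Pkm. Those fits called 4.94% and 4.76% of all probe sets lower, so neither count stands far from that background. Tpi1, Pgk1, Pgam1 and Pkm are in the brightest 25% of probe sets, whose share called in those fits is not given here.

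Of 15 other glycolytic enzymes 8 were lower and 7 higher in CKO, with a median of -0.14. Pkm, the pyruvate kinase of most tissues, was at 14.26, 12.92 and 12.9 in CKO and 14.36, 14 and 14.47 in controls, so CKO replicate 1 lay among the controls (difference -0.92, adjusted p = 0.509). Pgk1, phosphoglycerate kinase, was at 11.41, 10.43 and 10.05 in CKO and 11.52, 11.45 and 11.22 in controls, again with CKO replicate 1 among the controls (-0.77, adjusted p = 0.537). Adpgk, an ADP-dependent glucokinase, had no overlap, at 10.75, 10.49 and 10.26 in CKO and 11.16, 11.51 and 10.76 in controls (-0.64, adjusted p = 0.526).

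Of 11 other sugar and lactate transport genes 7 were lower and 4 higher in CKO. Slc2a5, a fructose transporter known as a microglial marker, was at 15.97, 15.84 and 15.4 in CKO and 15.24, 15.46 and 14.37 in controls, a difference of 0.71 opposite in sign to that of Slc2a1 (adjusted p = 0.542). Slc2a5 is also in the list of microglial markers described above. Slc2a6, a transporter of leukocytes, was at 6.82, 7.09 and 7.01 in CKO and 7.5, 7.62 and 7.87 in controls, with no overlap (-0.69, adjusted p = 0.441). Emb, an accessory protein of lactate carriers, was at 11.37, 12.34 and 11.88 in CKO and 12.94, 12.8 and 13.12 in controls, also without overlap (-1.09, adjusted p = 0.297).

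Of 11 genes that pass pyruvate into mitochondria 3 were lower and 8 higher in CKO, with a median of 0.18, and 0 were called. Their mean was 10.09 on CKO replicate 1, the array with the highest astrocyte markers, and 9.32 and 9.10 on CKO replicates 2 and 3, inside the range of 9.01 to 9.51 on the controls. Pdp1, a phosphatase that activates pyruvate dehydrogenase, differed by 0.85 (adjusted p = 0.514), Mpc1 of the mitochondrial pyruvate carrier by 0.56 (adjusted p = 0.547) and Dld, a subunit of pyruvate dehydrogenase, by 0.47 (adjusted p = 0.585). Mpc1 was at 13.45, 12.96 and 12.99 in CKO and 12.67, 12.78 and 12.26 in controls, and Dld at 11.63, 11.55 and 11.49 in CKO and 11.14, 11.35 and 10.78 in controls, each with all CKO arrays above all control arrays. Of 5 pentose phosphate genes 4 were lower; Pgls, Taldo1 and Pgd differed by -0.82, -0.79 and -0.40 (adjusted p from 0.413 to 0.659). Of 4 genes that set the level of the activator of phosphofructokinase-1 or oppose that enzyme, 3 were lower; Fbp1, a gluconeogenic phosphatase, differed by 0.69, Tigar by -0.35 and Pfkfb4 by -0.04 (adjusted p from 0.592 to 0.97).

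The HIF system and its targets outside glycolysis were also mixed, with 6 of 9 and 6 of 15 genes lower in CKO. Egln3 encodes an oxygen sensor that marks HIF for breakdown and is itself induced by HIF. It was at 6.17, 6.25 and 5.99 in CKO and 6.88, 7.55 and 7.96 in controls, with no overlap (-1.33, SE 0.33, adjusted p = 0.213). Vegfa, a growth factor for vessels and a known HIF target, went against Hif1a: it was at 10.87, 10.81 and 12.37 in CKO and 10.42, 10.09 and 9.84 in controls, with all CKO arrays above all control arrays (1.23, SE 0.44, adjusted p = 0.413). Hmox1, which degrades heme, overlapped, at 11.13, 10.81 and 9.54 in CKO and 11.63, 10.94 and 11.92 in controls (-1.0, adjusted p = 0.518), and Kdm3a, a histone demethylase, differed by -0.52 (adjusted p = 0.581). Epas1, which encodes the related HIF-2 subunit, was at 11.67 on CKO replicate 1, 7.49 and 7.32 on the other CKO arrays, and 7.86, 9.06 and 7.07 in controls, high where astrocyte markers were high. Egln2, a further oxygen sensor, differed by 0.33 (adjusted p = 0.768).

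**Figure D4:**
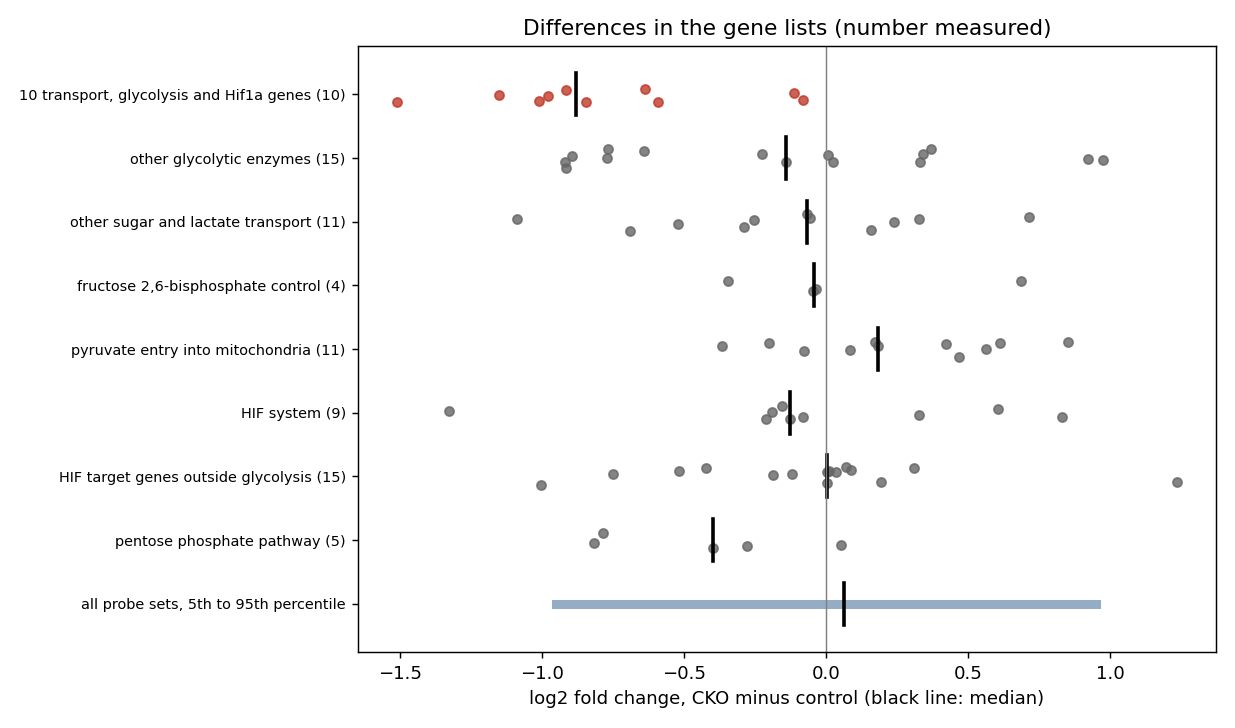
Log2 fold change, CKO minus control (horizontal axis), of each gene (points) in the 10 genes described (red) and in 7 lists of related genes (grey), with black lines for medians and a blue bar for the 5th to 95th percentile of all probe sets. The 10 genes have a median of -0.88 and no value above 0, while the 7 lists have medians between -0.40 and 0.18 and genes on both sides of 0.

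Markers of infiltrating leukocytes had lower means in the same CKO samples, though 0 of the T cell, monocyte, neutrophil and B cell markers were called (lowest adjusted p = 0.0745). All 11 measured T cell markers had a lower mean in CKO, 10 of them without overlap (8.48% of all probe sets), and the mean of the list was 6.64 to 7.13 in CKO and 8.35 to 10.12 in controls. All 11 monocyte markers were lower, 7 without overlap, with a list mean of 10.75 to 11.60 in CKO and 12.32 to 13.13 in controls. Neutrophil markers were less uniform, with 9 of 11 lower, 1 without overlap, and a list mean of 12.97 to 13.85 in CKO and 13.89 to 14.51 in controls. Of 7 B cell markers 6 were lower, 2 without overlap, with a list mean of 6.06 to 7.11 in CKO and 7.53 to 8.42 in controls. Control replicate 2 had the lowest T cell and monocyte list means of the controls (8.35 and 12.32) and was also the lowest control for 7 of the 10 genes described. The same array had the highest astrocyte, neuron and oligodendrocyte list means of the controls (10.98, 9.40 and 9.90), whose part was likewise not tested. Activated T cells, monocytes and neutrophils all use glycolysis, and in a bulk sample fewer cells of such a type and less RNA per cell cannot be told apart; the part of these cells in the lower values was not tested. Among the CKO arrays, the T cell and monocyte lists were lowest on CKO replicate 1, while the neutrophil list was highest there. That array was the highest CKO array for 9 of the 10 genes and also had the highest astrocyte markers. What this order means for the 10 genes was not tested.

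**Figure D5:**
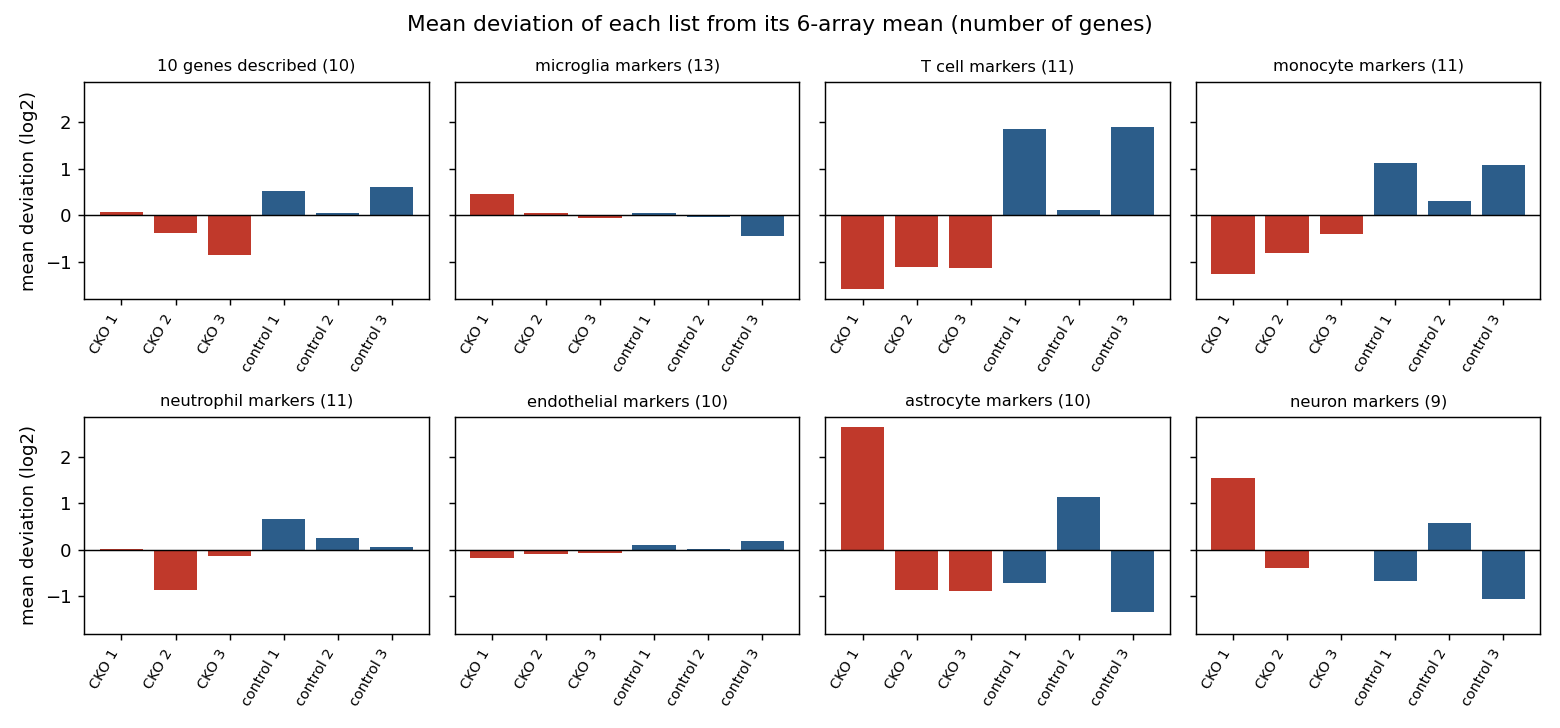
Mean deviation (vertical axis, log2 units) of the 10 genes described and of 7 cell type marker lists from their 6-array means, for each CKO array (red, left) and control array (blue, right). T cell and monocyte markers are below 0 on all CKO arrays and above 0 on all control arrays, and astrocyte markers peak on CKO replicate 1 (2.65) and control replicate 2 (1.14).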

How the data were processed

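Total RNA of 6 samples was labelled with biotin and hybridised to 1 expression array each. The authors deposited log2 values per probe set, processed with RMA (robust multi-array average) per the submitters' processing notes, with its version, settings and genome build not stated. That they are log2 was judged from their range of 2.93 to 19.93. No detection measure was used; 3 arrays per group limit the precision.

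Of 22206 probe sets, 19572 named 1 gene symbol in the platform annotation, 0 several, and 2634 are unnamed here; all 19572 matched a RefSeq gene (GRCm38.p6) by Entrez number. The probe set with the highest mean stood for a gene. Groups came from the sample titles. The fit used limma 3.58.1 under R 4.3.3 (lmFit and eBayes, CKO minus control, no covariate, two-sided), and p-values were adjusted by Benjamini-Hochberg across the 22206 probe sets; a call means an adjusted p under 0.05. Exact permutation of 3 CKO and 3 control arrays gives no p under 0.1 and was not used. Confidence intervals are unadjusted. The fit was tested on simulated data.

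The 10 genes and the lists were chosen with earlier results of these data known. Named were the 10 genes, and the 3 genes with the smallest p of each pathway list and any called gene. The first measured gene of a marker list is given for the microglial, astrocyte and endothelial lists only. Genes of the lists without a probe set of that symbol (9 of 79 pathway genes) were not analysed here. Alternatives were quantile normalization, median centring, leaving out the dimmest 20% or 50% of probe sets, array weights, a robust fit with a trend, the replicate number as a block, an adjusted p of 0.1, each array left out, and averaging probe sets of 1 gene; leaving out CKO replicates 2 and 3 together was chosen after seeing the data.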

Additional observations from a re-analysis of the deposited data

How the results depend on the processing

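Of the 10 genes, 8 kept a negative difference in all 15 alternative fits, and the direction of Hk1 and Hk3 depended on the setting. Leaving out dim probe sets, the trended robust fit, the replicate block and averaging of probe sets cannot change these differences. The sign in those fits was thus fixed in advance. The Hk1 difference was 0.12 after quantile normalization, 0.35 without CKO replicate 3, 0.06 without control replicate 1 and 0.75 without CKO replicates 2 and 3; that of Hk3 was 0.073 after quantile normalization, 0.05 without control replicate 1, 0.16 without control replicate 3 and 0.067 without CKO replicates 2 and 3. With 1 array left out, the lowest values were -0.50 for Hk1 (without CKO replicate 1) and -0.55 for Hk3 (without control replicate 2). The cause was not tested. Leaving out 1 array at a time, 8 to 10 of the 10 genes were lower, their median ran from -1.07 to -0.65, 0 to 2 of them, 0 to 5 of the 70 pathway genes and 0 to 2209 probe sets were called; the highest counts came without CKO replicate 1. Without CKO replicates 2 and 3, with 1 CKO array assumed to vary like the controls, 8 of the 10 were lower, the median was -0.42 and 0 probe sets were called. Array weights called 4 of the 10 genes, 4 pathway genes and 1694 probe sets. The 2 probe sets called over the array became 1 under quantile normalization and with the dimmest 20% or 50% left out, which tests fewer, 4 in the trended robust fit and 44 at an adjusted p of 0.1, with 0 of the 10 genes among them in each. The replicate number as a block called 0 probe sets. Deviations of same-numbered arrays correlated at -0.01, -0.23 and 0.25. With 3 arrays per group these values cannot decide whether the replicate numbers mark pairs. Signal over background was not available to judge precision per probe set.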

Other observations

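Some pathway genes outside the naming rule were picked after their values were seen. Aldoc, the aldolase typical of astrocytes, was at 18.64, 14.07 and 13.45 in CKO and 13.67, 17.23 and 12.49 in controls, high on the arrays with high astrocyte markers. Aldoc is itself in that marker list, so part of this match is built in. Aldoa, the widespread form, was at 15.86, 14.97 and 13.89 in CKO and 15.61, 15.64 and 15.79 in controls. Pfkm, the muscle-type phosphofructokinase, was at 11.22, 8.9 and 9.1 in CKO and 8.21, 9.84 and 8.25 in controls, highest on CKO replicate 1, unlike Pfkl and Pfkp. Gapdh, often used as a reference gene, was at 17.9, 17.2 and 17.22 in CKO and 17.66, 17.5 and 17.84 in controls, a difference of -0.23 (limma adjusted p = 0.80). Tpi1 and Pgam1, a pair of mid-pathway enzymes, were low on the narrow-range arrays only: Tpi1 was at 11.62, 9.75 and 9.42 in CKO and 11.24, 11.35 and 10.89 in controls, and Pgam1 at 10.24, 8.57 and 8.07 in CKO and 9.79, 9.86 and 9.99 in controls. CKO replicate 1 was thus above each control for Aldoc, Aldoa, Pfkm, Gapdh, Tpi1 and Pgam1, and, of the 10 genes, for Hk1. Hk3, Pfkl and Ldha lay among the controls on that array. It was below each control for Slc2a1, Hk2, Pfkp, Pfkfb3, Slc16a3 and Hif1a, as for 30.8% of all probe sets.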
